A study of Mus musculus with 10 samples.

Results

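Interferon-stimulated genes were examined in left ventricular tissue of mice with experimental heart failure with preserved ejection fraction (HFpEF) and of control mice. A list of 36 gene symbols, chosen by name, was searched in the deposited tables, and the 35 genes with TPM (transcript abundance per length, scaled to the same total in each library) above 0 in at least 9 of the 10 mice were kept, of 29564 genes listed in all. Rtp4, the symbol that was not kept, had estimated counts in control mice TT-583 (25.2) and TT-587 (17.6) and 0 in the remaining 8 mice. Ifit3b was listed under its older symbol I830012O16Rik. Of the 35 genes, 34 were tested with the other protein-coding genes (13299 in all). Mx2 is annotated as a polymorphic pseudogene and was therefore described without a test.

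All 10 mice were wild-type, of strain C57BL6 in the labels (C57BL/6J in the study's methods). The labels give vehicle for all 10 mice, whereas the sample titles name it for the HFD+mTAC group only. Control mice (TT-583 to TT-587, n = 5) were non-failing, and the HFD+mTAC group (TT-588 to TT-592, n = 5) carried the HFpEF model, in which a high-fat diet (HFD) is combined with moderate transverse aortic constriction (mTAC), a narrowing of the aorta that loads the left ventricle with pressure. According to the study's methods, all animals were male, and the controls were unoperated animals on standard chow, so that diet, operation and their combination cannot be told apart here. The labels describe the vehicle as given once a day at 10 mL/kg over 6 to 9 weeks, and give no age. Polyadenylated RNA of whole tissue was sequenced, in which fewer cells of a type and less RNA per cell cannot be told apart.

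Interferons are secreted proteins by which cells warn each other of infection or of nucleic acid in the wrong compartment. Type I interferons signal through the receptor pair Ifnar1 and Ifnar2 and lead to a complex that contains Stat2 and Irf9 and binds the interferon-stimulated response element (ISRE) in promoters, whereas interferon gamma signals through Ifngr1 and Ifngr2 and acts on promoters through the gamma-activated site (GAS). The genes induced encode sensors of foreign RNA, transcription factors that feed back on the pathway, and proteins that block viral entry, translation or replication. In the heart these genes are known to respond to viral myocarditis and to nucleic acid released from injured cells.

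Both elements were found among the promoters of these genes in reference sequence (RefSeq, GRCm38.p6). Of the 35 genes, 27 had a promoter in the table used, which covers 250 bases before to 50 after each start. An ISRE core, spelled GAAANNGAAA and searched on both strands, was present in 17 of these 27 genes (63.0%), against 1079 of all 27025 genes (3.99%). On the strand of the gene alone, 8 of the 27 genes held it, against 2.06% of all genes. A GAS element, spelled TTCNNNGAA, which reads the same on both strands, was present in 8 of the 27 (29.6%), against 9.55% of all genes. Both elements were present in 5 of the 27 genes, and neither in 7, which include Irf7 and Trim25. A match describes letters only and does not show binding. The genes were listed as induced by interferon, so these shares describe the list and are not a test. Ifit3 and Ifit3b, whose stretches below are identical, were counted separately. Stretches of 8 promoters are shown as examples. Of the interferon-inducible GTPases described below, Gbp7 and Igtp are shown, and both hold a GAS element. Gbp2, Gbp3 and Irgm1, which are not shown, hold an ISRE core and no GAS element. Capitals mark the ISRE core on either strand or the GAS element, including where matches overlap.
Irf1: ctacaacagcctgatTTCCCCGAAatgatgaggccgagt
Isg15: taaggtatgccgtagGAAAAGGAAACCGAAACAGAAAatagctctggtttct
Ifit1: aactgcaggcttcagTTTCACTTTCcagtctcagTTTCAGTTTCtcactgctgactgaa
Ifit3: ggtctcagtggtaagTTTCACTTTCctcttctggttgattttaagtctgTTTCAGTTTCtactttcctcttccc
Ifit3b: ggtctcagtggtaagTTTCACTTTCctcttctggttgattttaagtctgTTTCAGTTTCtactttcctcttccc
Bst2: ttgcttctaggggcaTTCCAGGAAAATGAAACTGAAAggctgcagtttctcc
Gbp7: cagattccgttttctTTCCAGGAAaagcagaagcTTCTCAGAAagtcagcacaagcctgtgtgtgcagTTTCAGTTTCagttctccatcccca
Igtp: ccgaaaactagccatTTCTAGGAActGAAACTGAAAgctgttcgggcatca

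Each stretch lies before the start of its gene and is printed 5′ to 3′ on the strand of the gene. The stretch of Irf1 lies at chr11:53769909-53769947 on the plus strand and holds a GAS element and no ISRE core. That of Isg15, at chr4:156200860-156200911 on the minus strand, holds 3 overlapping ISRE cores. The stretches of Ifit1 (chr19:34640770-34640828), Ifit3 (chr19:34583358-34583431) and Ifit3b (chr19:34607754-34607827), all on the plus strand, hold 2 ISRE cores each, and those of Ifit3 and Ifit3b are identical over their 74 bases. The stretch of Bst2, at chr8:71537572-71537623 on the minus strand, holds 2 ISRE cores and 1 GAS element that overlap. Those of Gbp7 (chr3:142530215-142530307) and Igtp (chr11:58199496-58199546), both on the plus strand, hold 1 ISRE core each beside 2 and 1 GAS elements.

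The libraries held 34.2 to 53.7 M estimated counts, of which 12.7 to 21.1 M fell on the genes tested, and the totals did not differ detectably between the groups (two-sided exact permutation test, p = 0.444). The ventricular light chain gene Myl2 was at 6934 to 9941 TPM and the atrial light chain gene Myl7 at 0 to 0.830 TPM. Summed TPM of 5 ventricular cardiomyocyte markers was 17380 ± 1428 (SD, n = 5) in control and 14630 ± 873 in HFD+mTAC mice (two-sided exact permutation test, p = 0.0159, adjusted p = 0.119 over 15 values), and that of 3 atrial markers 1.78 ± 0.514 in control and 1.02 ± 0.132 in HFD+mTAC mice without overlap (p = 0.00794 by the same exact test, adjusted p = 0.119). The part of both in the differences below was not tested. Summed TPM of 4 leukocyte markers was 7.33 ± 2.44 (SD, n = 5) in control and 6.62 ± 0.895 in HFD+mTAC mice (two-sided exact permutation test, p = 0.579). The labels give no batch. Nothing in the labels says more of the mice than that they are separate animals, and p-values measure the spread between them. Control mouse TT-586 stood apart from the others in a group of these genes, and log2 fold changes that moved by over 1.5 times without it are given both ways.

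No interferon-stimulated gene differed between HFD+mTAC and control mice after adjustment. Levels are given as CPM, the counts of a gene per M counts on the genes tested after scaling by edgeR's TMM factors, and differences as the log2 fold change of HFD+mTAC minus control mice with its standard error (SE). With edgeR's quasi-likelihood test and Benjamini-Hochberg adjustment over all 13299 genes, 0 of 34 genes had an adjusted p under 0.05, against 8 of all genes tested (0.0602%). DESeq2 also called 0 of 34, against 120 of all genes (0.902%), and limma on log2(TPM + 1) called 0 of 34, against 1 of all genes (0.00752%). At an unadjusted p under 0.05, edgeR gave 2 of 34 genes, Irf7 and Trim25, both higher in HFD+mTAC mice, against 8.26% of all genes. In 0 of 34 genes did the groups not overlap, against 1.95% of all genes.

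The direction of the list in the edgeR fit changed when 1 control mouse was left out. Of the 34 genes, 24 had a log2 fold change below 0 (70.6%) and 10 above 0, against 49.7% of all genes below 0. The median log2 fold change was -0.12 for the list and 0.0013 for all genes tested. Without control mouse TT-586, 12 genes lay below 0 and 22 above 0, the median was 0.011, 0 genes were called, and Irf7 alone had an unadjusted p under 0.05 (all genes, 8.29%). The fold changes ranged from -0.79 (Mx1) to 0.41 (Irf7) over all 10 mice.

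**Figure D1:**
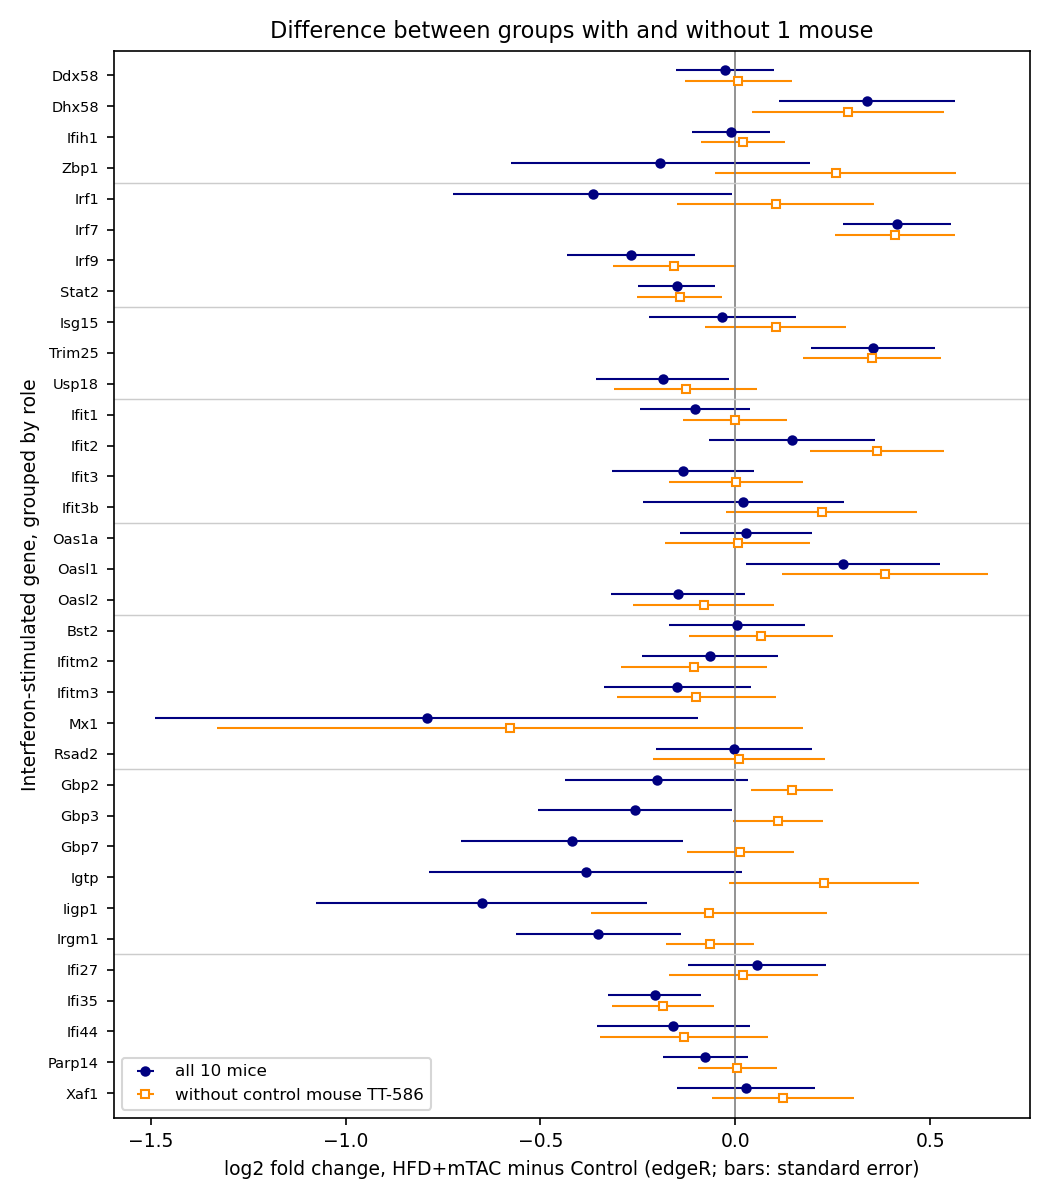
Log2 fold change (HFD+mTAC minus Control, horizontal axis) of the 34 genes tested, with bars for 1 SE, from all 10 mice (filled circles) and without control mouse TT-586 (open squares), in the order of their roles. The 6 interferon-inducible GTPases and Irf1 lie left of 0 with all mice, and only Irgm1 and Iigp1 among them stay left of 0 without TT-586.

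No sensor of nucleic acid differed detectably between the groups. Ddx58 (RIG-I) and Ifih1 (MDA5) detect viral RNA in the cytoplasm, Dhx58 (LGP2) modulates them, and Zbp1 detects Z-form nucleic acid. Ddx58, the sensor with the highest mean level (1.78 TPM), read 27.1, 30.3, 30.3, 34.7 and 36.3 CPM in the control group and 29.6, 30.6, 35.1, 36.6 and 23.8 CPM in the HFD+mTAC group, here and in all values that follow in the order of the mouse numbers. The groups overlapped almost completely, with the lowest mouse (TT-592) and the highest (TT-591) both in the HFD+mTAC group. Its log2 fold change was -0.03 (SE 0.13, edgeR adjusted p = 0.977) and 0.0082 without TT-586, and it was 0.37 on log2(TPM + 1), which also corrects for an effective transcript length that differed from 1630 to 3736 bases between mice. Dhx58 read 3.12, 2.26, 3.38, 2.47 and 3.15 CPM against 2.43, 3.09, 4.84, 3.62 and 4.24 CPM. The 3 highest mice were HFD+mTAC mice, and the groups overlapped (log2 fold change 0.34, SE 0.23, edgeR adjusted p = 0.765). Its effective length ran from 775 to 2932 bases, and with these lengths in the model the log2 fold change of Dhx58 was 1.03 (SE 0.44, edgeR adjusted p = 0.652). Ifih1 spanned 22.1 to 27.3 CPM over all mice, with a log2 fold change of -0.01 that was 0.02 without TT-586. Zbp1 was at 5.57 CPM in TT-586 and at 1.10 to 3.07 CPM in the other mice, with a log2 fold change of -0.19 that was 0.26 without TT-586.

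Among the factors that relay the signal, Irf7 had the smallest p of the list. Irf7, a master regulator of the later type I interferon response, read 18.4, 18.6, 20.4, 18.5 and 18.0 CPM in control mice and 23.5, 20.7, 32.1, 29.5 and 19.5 CPM in HFD+mTAC mice. All control mice were close together, 4 of 5 HFD+mTAC mice lay above all of them, and TT-592 lay below control mouse TT-585. The log2 fold change was 0.41 (SE 0.14, unadjusted p = 0.0108, edgeR adjusted p = 0.416), and the lowest adjusted p among the alternatives was 0.231 with DESeq2. In TPM the order of mice differed, with 2.75, 2.90, 2.01, 3.08 and 4.46 against 5.58, 2.68, 4.10, 2.82 and 7.10, since the effective transcript length of Irf7 ran from 472 bases in TT-592 to 1493 bases in TT-585. With these lengths in the model the log2 fold change was 0.58 and the unadjusted p 0.0606.

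Irf1 was highest in a control mouse. This transcription factor is induced early by interferon and activates GTPase and antigen presentation genes, and it read 26.3, 25.0, 27.9, 78.7 and 27.8 CPM in control mice and 25.4, 33.1, 19.2, 48.3 and 17.7 CPM in HFD+mTAC mice. TT-586 was 2.82 times as high as the next control mouse, whereas the other 4 control mice differed by less than 3 CPM. The log2 fold change was -0.37 (SE 0.36, edgeR adjusted p = 0.854), and 0.10 without TT-586. On log2(TPM + 1) it was 0.38 with all mice, and the effective length of Irf1 ran from 634 to 1880 bases. Irf9, the DNA-binding partner of Stat2, read 26.4, 28.7, 23.6, 38.0 and 29.7 CPM against 20.8, 22.1, 24.2, 34.2 and 20.3 CPM. Mouse TT-591 stood above the other HFD+mTAC mice, 4 of which lay below 4 of the control mice (log2 fold change -0.27, SE 0.16, edgeR adjusted p = 0.723, and -0.16 without TT-586). Stat2 spanned 25.6 to 33.9 CPM in control and 25.1 to 30.8 CPM in HFD+mTAC mice, with a log2 fold change of -0.15.

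The ISG15 system showed no common direction. Isg15, a ubiquitin-like protein that is joined to other proteins and a common readout of interferon, read 4.51, 6.10, 4.51, 7.54 and 4.88 CPM against 4.87, 4.72, 6.69, 5.46 and 5.16 CPM. TT-586 was the highest mouse and TT-590 the next, and the groups overlapped (log2 fold change -0.03, SE 0.19, edgeR adjusted p = 0.983, and 0.10 without TT-586). Trim25, a ubiquitin and ISG15 ligase that activates RIG-I, read 38.2, 34.4, 29.2, 35.7 and 43.0 CPM against 41.1, 35.8, 50.5, 64.5 and 38.6 CPM. Mice TT-590 and TT-591 lay above all control mice and the other 3 HFD+mTAC mice among them, with a log2 fold change of 0.35 (SE 0.16, unadjusted p = 0.0454, edgeR adjusted p = 0.596). Without TT-591 the log2 fold change was 0.20 (unadjusted p = 0.146). Usp18, which removes ISG15 and dampens the receptor, spanned 4.61 to 7.40 CPM over all mice, with a log2 fold change of -0.19.

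**Figure D2:**
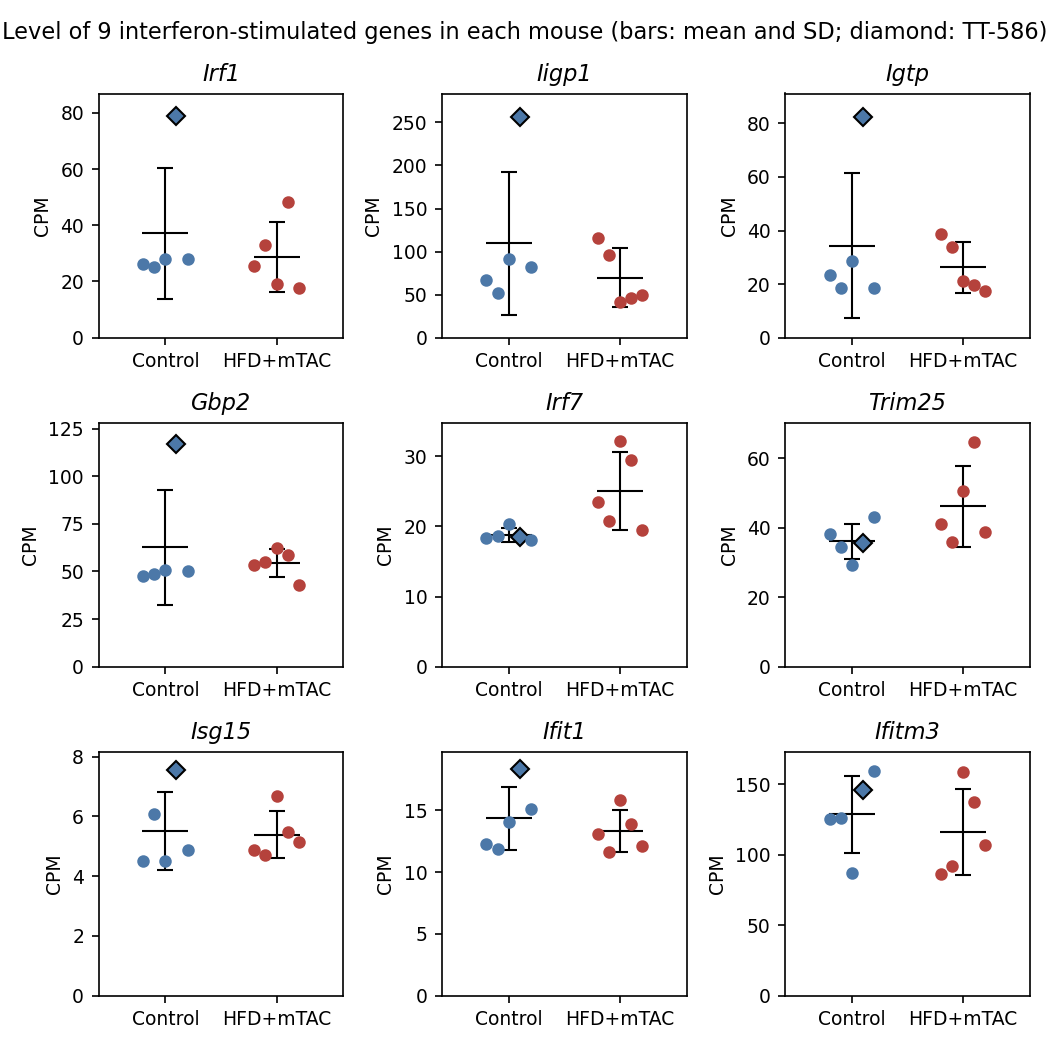
CPM (vertical axes, from 0) of 9 genes in each of the 5 Control and 5 HFD+mTAC mice, with bars for the mean and SD of each group and a diamond for control mouse TT-586. TT-586 lies far above every other mouse in Irf1 (78.7 CPM), Iigp1 (256 CPM), Igtp (82.3 CPM) and Gbp2 (116.8 CPM), and among the other control mice in Irf7 and Trim25.

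IFIT proteins bind foreign RNA and block its translation. Ifit1 read 12.3, 11.9, 14.1, 18.3 and 15.1 CPM in control mice and 13.1, 11.6, 15.9, 13.9 and 12.1 CPM in HFD+mTAC mice. The highest mouse was TT-586 and the lowest TT-589, and the groups overlapped over nearly their whole ranges (log2 fold change -0.10, SE 0.14, edgeR adjusted p = 0.910, and -0.0016 without TT-586). Ifit3 read 18.5, 15.7, 28.3, 31.7 and 21.7 CPM against 21.5, 21.0, 23.3, 23.2 and 16.4 CPM. Its near-copy Ifit3b read 7.91, 5.94, 12.2, 15.3 and 8.61 CPM against 10.9, 8.95, 11.6, 12.9 and 6.28 CPM. In both genes TT-586 was highest and TT-584 lowest of all mice, and the log2 fold changes were -0.13 (SE 0.18, edgeR adjusted p = 0.910) and 0.02 (SE 0.26, edgeR adjusted p = 0.994), against 0.0021 and 0.22 without TT-586. Ifit3 shares 51.2% of its windows of 50 bases with Ifit3b, so that the split of reads between them is uncertain. Ifit2 spanned 19.8 to 47.4 CPM in control and 23.2 to 39.2 CPM in HFD+mTAC mice (log2 fold change 0.15, and 0.36 without TT-586 with an unadjusted edgeR p of 0.0576). TT-586 was the highest of the 10 mice in all 4 IFIT genes, at 1.12 to 1.46 times the next control mouse.

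OAS proteins are activated by double-stranded RNA. The OAS-like gene Oasl2, the highest of the 3 measured (2.05 TPM), read 19.5, 17.7, 15.4, 24.0 and 25.2 CPM against 13.5, 15.5, 21.9, 21.6 and 19.2 CPM. TT-587 and TT-586 were the highest mice, and TT-588 was the lowest (log2 fold change -0.15, SE 0.17, edgeR adjusted p = 0.888, and -0.08 without TT-586). Oasl1, which restrains translation of Irf7, read 2.21, 2.47, 3.58, 3.95 and 3.07 CPM against 2.37, 3.09, 5.23, 3.82 and 3.99 CPM. TT-590 was highest, the groups overlapped, and the log2 fold change was 0.28 (SE 0.25, edgeR adjusted p = 0.835). Both values turned sign, to 0.04 and -0.0045, with transcript lengths in the model. Oas1a spanned 4.11 to 6.03 CPM over all mice, and 57.6% of its windows of 50 bases are shared with Oas1g.

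The other antiviral effectors included the most abundant gene of the list. Ifitm3, a membrane protein that blocks entry of viruses, had the highest mean level of the list (68.8 TPM) and read 125, 126, 87.1, 145.8 and 159.7 CPM in control mice and 86.3, 91.8, 158.5, 137 and 107 CPM in HFD+mTAC mice. Mice TT-585, TT-588 and TT-589 were low, and the other 7 mice, of both groups, lay above 100 CPM (log2 fold change -0.15, SE 0.19, edgeR adjusted p = 0.902). Ifitm2, its relative and the next in level (28.0 TPM), spanned 86.4 to 156 CPM in control and 86.5 to 141 CPM in HFD+mTAC mice, with a log2 fold change of -0.07 that was -0.11 without TT-586. Rsad2 (viperin), which makes a chain-terminating nucleotide, spanned 35.2 to 54.8 CPM in control and 26.5 to 56.8 CPM in HFD+mTAC mice. Bst2 (tetherin), which holds budding viruses at the cell surface, spanned 17.0 to 28.4 and 19.0 to 30.6 CPM. The log2 fold changes of Rsad2 and Bst2 were -0.0026 and 0.0044, and 0.0090 and 0.07 without TT-586.

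The Mx genes encode dynamin-like GTPases that trap viral particles, and C57BL/6 mice are known to carry defective copies. Mx1 was the lowest gene of those tested (0.036 TPM) and read 0.397, 0.526, 0.410, 0.917 and 0.709 CPM against 0.0824, 0.305, 0.963, 0.319 and 0 CPM. All 5 control mice lay above 4 of the 5 HFD+mTAC mice, and TT-590 was the highest of all. These levels rest on 8.27 to 13.0 counts in control and 0 to 12.5 counts in HFD+mTAC mice, and 3 counts, the limit that a count of 0 allows, correspond to 0.142 to 0.237 CPM. The log2 fold change was -0.79 (SE 0.70, edgeR adjusted p = 0.830). Mx2 spanned 2.15 to 4.65 CPM in control and 1.79 to 2.94 CPM in HFD+mTAC mice.

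Interferon-inducible GTPases were the group in which mouse TT-586 stood apart. Guanylate-binding proteins (Gbp2, Gbp3, Gbp7) and immunity-related GTPases (Igtp, Irgm1, Iigp1) attack the vacuoles in which bacteria and parasites live and are classic targets of interferon gamma. Iigp1 read 67.3, 51.9, 91.4, 256 and 82.1 CPM in control mice and 116, 95.6, 41.1, 46.1 and 49.7 CPM in HFD+mTAC mice. Igtp read 23.4, 18.7, 28.8, 82.3 and 18.5 CPM against 38.8, 34.0, 21.1, 19.5 and 17.6 CPM. TT-586 was 2.80 and 2.86 times as high as the next control mouse in these genes, and TT-588 and TT-589 were the next highest of the 10 mice. The log2 fold changes were -0.65 (SE 0.43, edgeR adjusted p = 0.757) and -0.38 (SE 0.40, edgeR adjusted p = 0.868), and -0.07 and 0.23 without TT-586.

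The guanylate-binding proteins, which lie in a cluster on chromosome 3, followed the same mouse. Gbp2, the highest of the GTPases (4.16 TPM), read 47.8, 48.5, 50.6, 116.8 and 50.2 CPM against 53.5, 55.0, 62.4, 58.7 and 43.1 CPM. The other 4 control mice were within 3 CPM of each other, and 4 of 5 HFD+mTAC mice lay above them. Gbp3 read 28.5, 26.2, 32.4, 72.2 and 30.3 CPM against 32.1, 35.1, 30.4, 35.1 and 25.6 CPM, and Gbp7 read 41.8, 47.3, 47.6, 133 and 56.9 CPM against 56.3, 52.9, 51.1, 48.3 and 35.3 CPM. TT-586 was 2.23 to 2.34 times as high as the next control mouse in these 3 genes, and TT-592 was the lowest mouse in all 3. Their log2 fold changes were -0.20, -0.26 and -0.42 (edgeR adjusted p = 0.890, 0.851 and 0.771), and 0.15, 0.11 and 0.01 without TT-586. Irgm1, a regulator of the other immunity-related GTPases, read 28.5, 30.6, 33.4, 65.8 and 32.6 CPM against 33.7, 34.5, 27.8, 27.3 and 25.9 CPM. It was 1.97 times as high in TT-586 as in the next control mouse, and had the smallest p of the group (log2 fold change -0.35, SE 0.21, edgeR adjusted p = 0.714). Without TT-586 this value was -0.07.

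As a group, the 6 GTPases all had a log2 fold change below 0, with a median of -0.37 (0 called, 0 at an unadjusted p under 0.05). Without TT-586, 2 were below 0 and 4 above 0, with a median of 0.06. The median SD of log2 CPM within the control group was 0.63 for the 6 genes and 0.16 without TT-586, against 0.22 for all genes tested. For all 34 genes it was 0.30 and 0.24. Over the whole list, TT-586 was above 1.5 times the highest other control mouse in 8 genes (23.5%), the 6 GTPases with Irf1 and Zbp1, against 1.56% of all genes. Of the 10 mice it was highest in 17 of 34 genes, against 6.77% of all genes. No other control mouse exceeded 1.5 times the next in any of the 34 genes, and TT-590 did so within its group in 1.

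**Figure D3:**
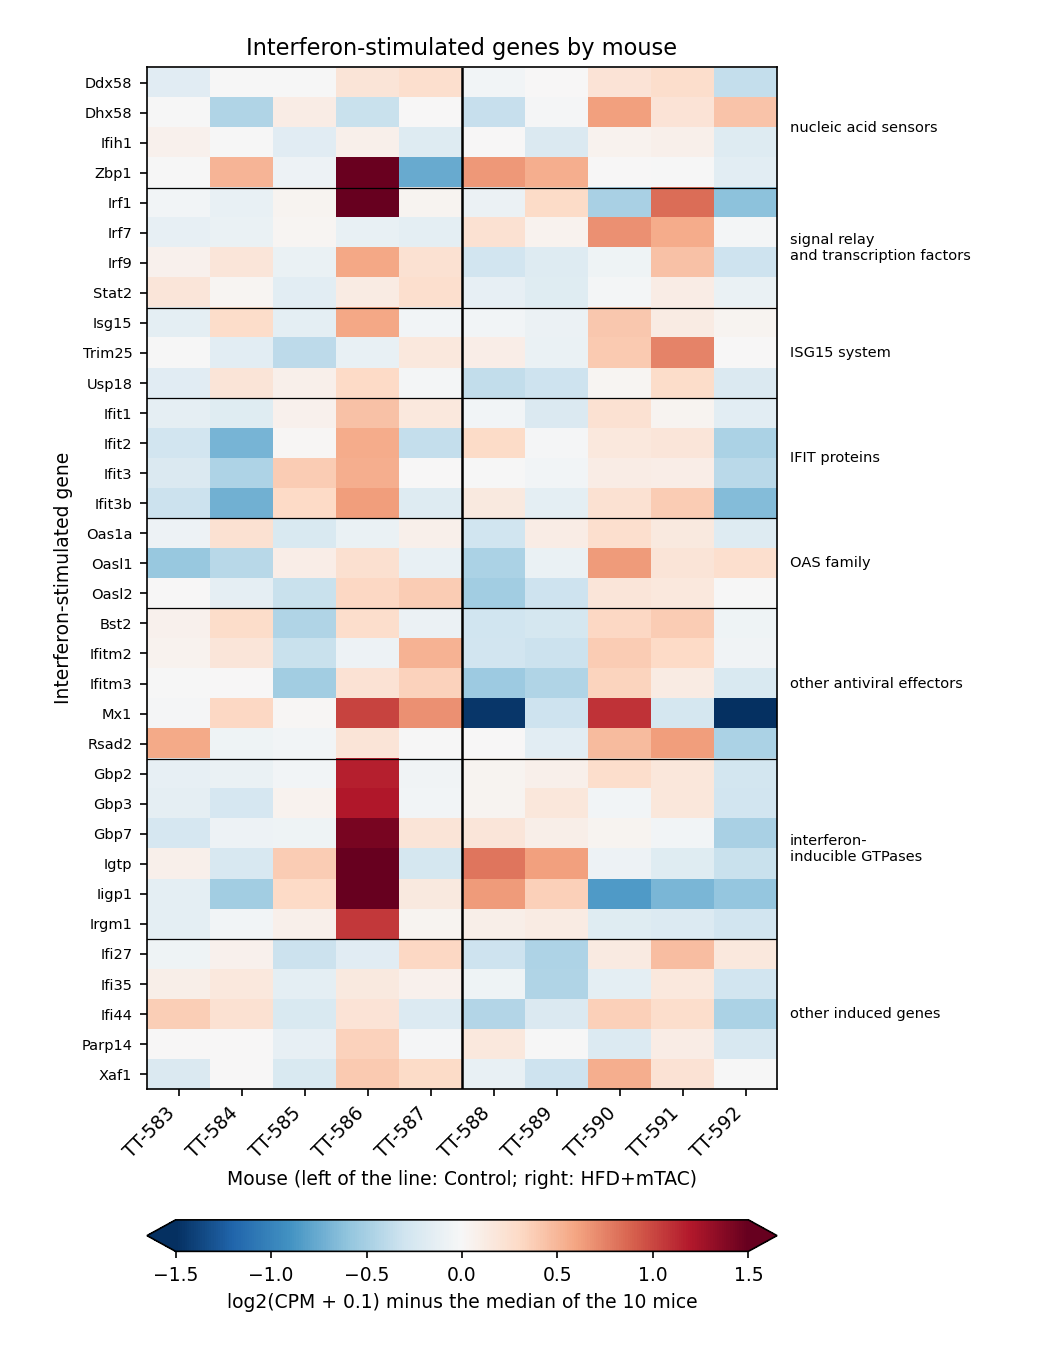
Level of the 34 genes tested (rows, in the order of their roles) in each mouse (columns, Control left and HFD+mTAC right of the line), as log2(CPM + 0.1) minus the median of the 10 mice, in color from blue (lower) to red (higher), with the scale ending at 1.5 on either side. The column of TT-586 is dark red in the 6 GTPases, Irf1 and Zbp1, and TT-592 holds the lowest value in 12 rows.

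Other measures of TT-586 are given beside these levels. Its depth on tested genes (14.2 M counts) and its mitochondrial share (49.5%) lay within the range of the other control mice. Summed TPM of the leukocyte markers was 7.91, in a range of 4.13 to 10.1 in control mice, that of 10 macrophage and monocyte markers 35.1 in a range of 32.0 to 69.3, and that of 8 T and NK cell markers 0.317 in a range of 0.239 to 0.499. Cd3e had 0 counts in TT-586 and TT-590, and Cd8a had 0 in TT-586, TT-587 and TT-591. The NK and T cell gene Nkg7 had 9 counts in TT-586, 0 or 1 in the other control mice and up to 11 in HFD+mTAC mice. Cd4 was at 2.61 CPM in TT-586, 1.79 to 2.75 CPM in the other control mice and 1.33 to 2.03 CPM in HFD+mTAC mice. The summed B cell markers were highest among control mice in TT-586 (0.518 TPM, range 0.167 to 0.518), with up to 0.579 in HFD+mTAC mice. The summed endothelial markers were lowest among control mice in TT-586 (42.5 TPM, range 42.5 to 74.3), with 38.0 to 61.8 in HFD+mTAC mice. So were the summed dendritic cell markers (0.024 TPM, range 0.024 to 0.071), with 0.030 to 0.132 in HFD+mTAC mice. The monocyte gene Ly6c2 was at 1.77 CPM in TT-586, 0.760 to 1.71 CPM in other control mice and up to 3.23 CPM in HFD+mTAC mice. The atrial gene Myl7 was at 0.830 TPM (21 counts) in TT-586 and at most 0.172 TPM elsewhere. Sln, also atrial, had 3 counts in TT-586 and at most 1 elsewhere. The more abundant atrial gene Myl4 was at 1.26 TPM in TT-586, below the 1.28 to 2.38 TPM of the other control mice. Summed TPM of these 3 atrial markers was 2.14 in TT-586, in a range of 1.37 to 2.51 in control mice. The part of these measures in the levels of TT-586 was not tested.

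The remaining genes are induced by interferon with varied functions. Ifi27, a small membrane protein and the highest of these (8.69 TPM), read 22.9, 25.1, 19.2, 21.3 and 29.9 CPM against 19.3, 17.4, 26.3, 33.1 and 26.9 CPM. TT-591 was highest and TT-589 lowest, both HFD+mTAC mice (log2 fold change 0.06, SE 0.18, edgeR adjusted p = 0.962, and 0.02 without TT-586). Ifi35, a partner of the interferon-induced protein Nmi, read 24.5, 25.8, 20.9, 25.7 and 24.1 CPM against 22.2, 16.9, 21.0, 25.9 and 18.9 CPM. The lowest mice were TT-589 and TT-592 and the highest TT-591, with a log2 fold change of -0.21 (SE 0.12, edgeR adjusted p = 0.706). Parp14, an ADP-ribosyltransferase, read 58.6, 58.4, 53.2, 73.8 and 57.6 CPM against 65.1, 58.1, 50.4, 63.0 and 49.4 CPM. TT-586 was again the highest mouse, at 1.26 times the next control mouse (log2 fold change -0.08, SE 0.11, edgeR adjusted p = 0.914, and 0.0057 without TT-586). Ifi44 spanned 7.80 to 14.1 CPM over all mice and Xaf1, a promoter of apoptosis, 11.7 to 21.2 CPM, with log2 fold changes of -0.16 and 0.03 (0.12 for Xaf1 without TT-586).

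Within the HFD+mTAC group, most of the GTPases and most of the other genes were highest in different mice, a pattern noticed after the values were seen and given without a test. In 20 of the 28 genes other than the GTPases (71.4%), TT-590 and TT-591 were the 2 highest of the 5 HFD+mTAC mice, against 20.9% of all genes tested. These included Irf7, Isg15, Trim25, Rsad2, Bst2, Ifitm2 and Ifitm3. In 4 of the 6 GTPases, Gbp7, Igtp, Irgm1 and Iigp1, TT-588 and TT-589 were the 2 highest, against 17.8% of all genes and 1 of the 28 other genes (Zbp1). In Gbp2, 1 of the 6 GTPases, the 2 highest were TT-590 and TT-591, and in Gbp3 TT-591 and TT-589 were nearly equal. TT-592 was the lowest of all 10 mice in 12 of 34 genes, against 7.08% of all genes. TT-590 and TT-591 had the lowest depth on tested genes of their group (12.9 and 14.0 M counts, against 15.4 to 16.9 M), and its part in this pattern was not tested.

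Upstream of these genes, the interferons themselves were near the limit of detection. Of 21 interferon genes listed, 16 had 0 counts in every mouse, Ifnb1 among them, and the 5 with counts held 13 counts over all mice. Ifng had 1 count each in TT-584 and TT-585, 3 in TT-588 and 0 in the other mice, TT-586 included. At 3 counts for a count of 0, these levels allow up to 0.142 to 0.237 CPM per gene and mouse, for counting error only. The receptor genes Ifnar1 and Ifnar2 spanned 30.8 to 40.5 and 40.6 to 62.8 CPM, with log2 fold changes of 0.15 (SE 0.09, edgeR adjusted p = 0.706) and -0.12 (SE 0.11, edgeR adjusted p = 0.835). Ifngr1 had the smallest p of the receptors and kinases, with 86.2, 86.7, 74.0, 79.9 and 92.8 CPM against 84.4, 81.2, 119.6, 112.7 and 91.8 CPM. TT-590 and TT-591 were above all other mice (log2 fold change 0.22, SE 0.12, edgeR adjusted p = 0.664).

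Other lists of pathway genes gave no call either. Of 131 genes in 6 lists, 105 were tested, and edgeR called 0 at an adjusted p under 0.05 and 5 at an unadjusted p under 0.05 (all genes, 8.26%). Among 12 inhibitors of interferon signaling, Socs3, a feedback inhibitor of cytokine receptors, had the smallest p, with 10.9, 13.9, 8.13, 6.48 and 12.6 CPM against 4.36, 5.14, 6.92, 8.60 and 4.79 CPM. Only TT-590 and TT-591 of the HFD+mTAC mice reached the level of TT-586, the lowest control mouse (log2 fold change -0.80, SE 0.24, unadjusted p = 0.0061, edgeR adjusted p = 0.353). Among 15 genes of interferon induction, Tlr7, a receptor of single-stranded RNA, read 2.21, 3.26, 2.74, 2.19 and 2.91 CPM against 4.42, 4.05, 3.85, 3.55 and 3.07 CPM (log2 fold change 0.51, SE 0.19, edgeR adjusted p = 0.487). All HFD+mTAC mice except TT-592 lay above all control mice. Among 52 further interferon-stimulated genes, Ifi204, a DNA sensor, had the smallest p (log2 fold change -0.36, SE 0.13, edgeR adjusted p = 0.466). Among 17 genes of antigen presentation on MHC class I it was Psme2, a proteasome activator (log2 fold change -0.17, SE 0.10, edgeR adjusted p = 0.704).

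Some genes outside the list that are known targets of interferon gamma were high in TT-586 as well, and those named here were chosen after their values were seen. Tgtp1 was at 127.8 CPM in TT-586 and at most 25.3 CPM in the other control mice (5.06 times), and Irgm2 at 112 and at most 35.9 CPM (3.13 times). The inhibitory ligand Cd274 (PD-L1) was 2.82 times as high as in the next control mouse, the peptide transporter Tap1 2.13 times, the MHC class I activator Nlrc5 2.04 times and the chemokine Cxcl9 1.85 times. Over the 6 lists, 15 of the 105 genes tested exceeded 1.5 times the next control mouse in TT-586, against 1.56% of all genes. MHC class I genes were highest of the 10 mice in TT-586 in 13 of 17 genes, whereas receptors and kinases were so in 2 of 9. Tgtp1, Irgm2, Tap1 and Cd274 had log2 fold changes of -0.96, -0.29, -0.12 and -0.63 with all mice and 0.10, 0.43, 0.27 and -0.05 without TT-586, and an adjusted p of at least 0.706 with edgeR in all mice.

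**Figure D4:**
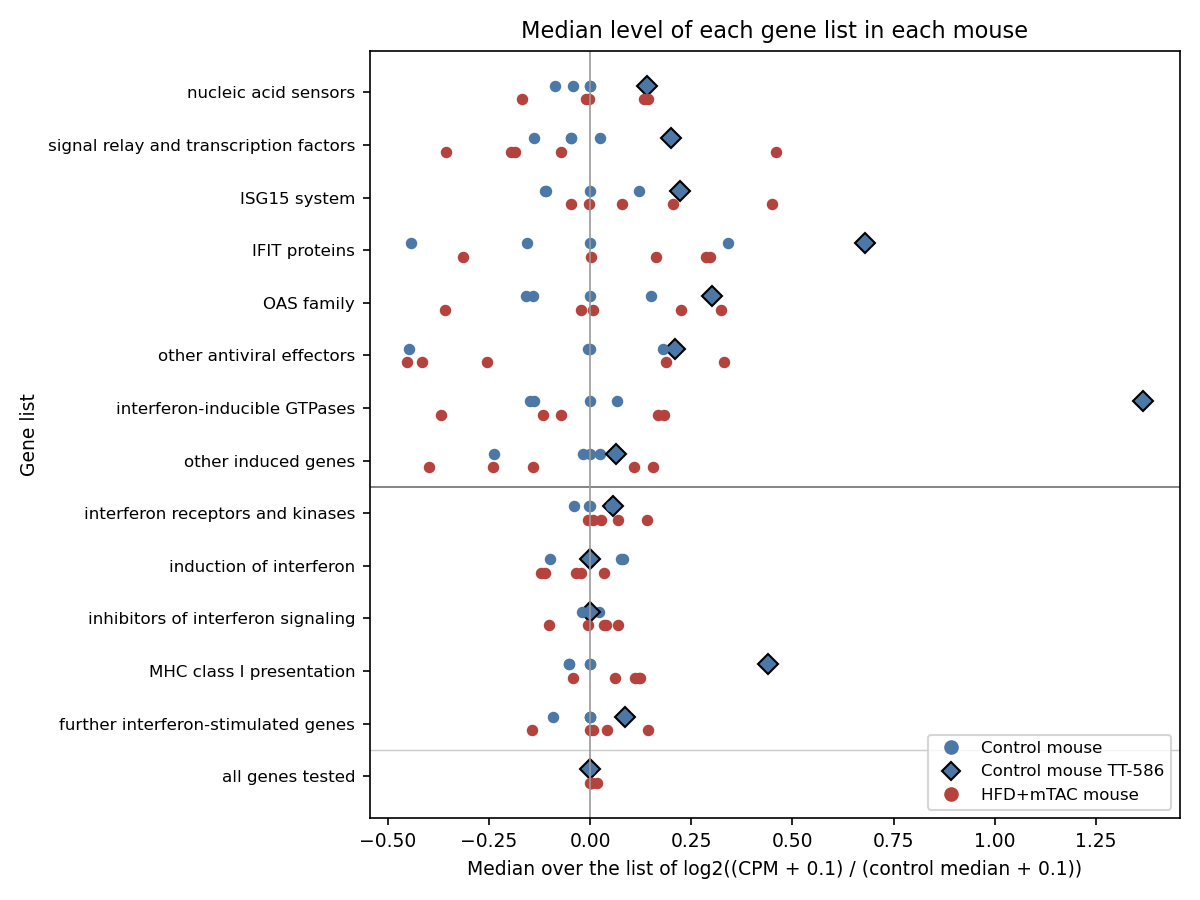
Median over each gene list of the log2 ratio of CPM to the control median (0.1 added to both), for each Control mouse (blue), TT-586 (blue diamond) and each HFD+mTAC mouse (red), with the 8 role groups of the list above the dark line and other pathway lists and all genes below it. TT-586 is at 1.37 for the interferon-inducible GTPases, 0.68 for IFIT proteins and 0.44 for MHC class I presentation, and the other mice lie between -0.45 and 0.46 in every list.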

How the data were processed

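RNA-seq of left ventricle from 5 Control and 5 HFD+mTAC mice was analyzed. Per the study's methods, libraries came from a stranded mRNA kit, and salmon (1.6.0, also in the submitters' processing notes) was run on GENCODE transcripts of GRCm38, whereas these notes name the build hg38. Methods and labels differ on read length and pairing. The authors deposited estimated counts per gene from tximport, without normalization, of which 20.07% are not whole. The authors also deposited TPM values, whose scale is set separately for every mouse, and the mean effective length of each gene's transcripts in bases. Sequencing depth and its precision are given with the results.

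Counts were rounded. Protein-coding genes outside the mitochondrial genome with at least 1 count in at least 9 of 10 mice (13299 of 29564) were fitted with edgeR 4.0.16 under R 4.3.3 (TMM, quasi-likelihood test, Benjamini-Hochberg adjustment, threshold 0.05, no covariate). For 15 single values outside this fit (depth, marker sums), two-sided exact permutation tests were used (smallest possible p 0.0079, adjusted p at least 0.119). The edgeR test was checked on simulated data, and the permutation test was not. Gene symbols were matched to GENCODE M21 and RefSeq names (27862 directly, 862 through other symbols, 840 unmatched). Promoters came from RefSeq (GRCm38.p6). Python 3.11.15 was used for tables and figures.

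The genes examined and all gene lists were chosen with earlier results of these data known. Values in every mouse are given for any gene called, the smallest p and the highest mean TPM of each of 8 role groups, Irf7, Isg15, Ifit1, Ifit3 and Ifit3b, and genes with 1 mouse far from its group. Alternatives were DESeq2 1.42.0, limma 3.58.1 on log2(TPM + 1) and log2(TPM + 0.1), DESeq2's size factors, upper-quartile normalization, transcript lengths as offset, edgeR's filterByExpr, no filter, all biotypes and the omission of each mouse.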

Additional observations from a re-analysis of the deposited data

Results flagged for a closer look

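In 10 of 70 comparisons within a group of 5 mice, 1 mouse lay far from the other 4. The gap to its nearest neighbor was above 0.71 of the group's range. This limit flags about 1 in 20 groups of independent, normally distributed values. The share over all genes tested was not computed, so the count is not read as an excess. Of these, 8 were control mouse TT-586, which was high in Irf1 (78.7 CPM), Gbp2 (116.8 CPM), Gbp3 (72.2 CPM), Gbp7 (133 CPM), Igtp (82.3 CPM), Irgm1 (65.8 CPM), Iigp1 (256 CPM) and Parp14 (73.8 CPM). These genes are measured in the same library and are not separate observations. The other comparisons were Irf9 in HFD+mTAC mouse TT-591 (34.2 CPM), above the other 4 HFD+mTAC mice, and Irf7 in control mouse TT-585 (20.4 CPM), above the other 4 control mice.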

How the results depend on the processing

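No gene of the list was called under any setting (lowest adjusted p 0.231). Of 206 fold changes of the 23 genes named under the 9 other settings, 194 kept their direction (Mx1 was removed by filterByExpr). The other 12 were Ddx58 at 0.371, 0.395 and 0.415, and Oasl2 at 0.056, 0.0588 and 0.0352, with limma on log2(TPM + 1), limma on log2(TPM + 0.1) and transcript lengths as offset; Irf1 at 0.382 and 0.401 and Isg15 at 0.0549 and 0.0605 with the 2 limma settings; and Ifit3b at -0.051 and Oasl1 at -0.00449 with lengths as offset. All of these settings correct for transcript length; the cause was not tested. Genes at an unadjusted p under 0.05 numbered 1 with each limma setting (Irf7) and 1 with lengths as offset (Dhx58). Over all 13299 genes tested, 892 passed this limit with each limma setting and 990 with lengths as offset. With limma, 15 genes of the list were higher in HFD+mTAC mice. The 2 limma settings put 44.1% and 44.3% of all genes below 0. With no filter, 3 symbols had an unadjusted edgeR p under 0.05, namely Irf7, Trim25 and Rtp4, against 1224 of all 16673 genes. Rtp4 was not among the 35 genes kept. The ISRE core count was 8 on the strand of the gene alone.

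Over the omission of each mouse, genes at an unadjusted p under 0.05 numbered 1 to 3 (1 without TT-583, TT-584, TT-585 or TT-586). Of all 13299 genes tested, 844 (without TT-583) to 1208 (without TT-587) passed this limit. Genes higher in HFD+mTAC mice numbered 5 to 22 (6 without TT-585, 22 without TT-586, 6 without TT-590, 5 without TT-591). Between 48.3% and 51.1% of all genes lay below 0 in these fits. The groups did not overlap in 0 to 1 genes (Irf7 without TT-585 or TT-592, Mx1 without TT-590). The share over all genes was not computed for these omissions, so this count is not read as a result. Of 230 fold changes, 21 changed sign: they ranged from -0.0922 to 0.0569 for Ddx58, -0.286 to 0.146 for Gbp2, -0.365 to 0.11 for Gbp3, -0.544 to 0.0131 for Gbp7, -0.0751 to 0.154 for Ifi27, -0.248 to 0.00211 for Ifit3, -0.121 to 0.221 for Ifit3b, -0.573 to 0.228 for Igtp, -0.636 to 0.104 for Irf1, -0.123 to 0.104 for Isg15 and -0.131 to 0.00567 for Parp14. In Gbp2, Gbp3, Gbp7, Ifit3, Igtp, Irf1 and Parp14 only the omission of TT-586 changed the sign. No paired analysis was possible because the labels give no replicate numbers shared by the groups.

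With 5 mice per group, small differences in genes of low count such as Mx1 were not detectable at this depth.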
